A study of Mus musculus with 17 samples.

Results

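The genes described here were 8 immunoglobulin and B-lineage genes, Igkc, Ighm, Igha, Jchain, Mzb1, Cd79a, Cd79b and Ms4a1, taken by symbol from the 22558 genes of an RNA-seq table of mouse kidney. All 8 were in the table. Whole kidneys of 17 male mice were sequenced, with 1 library per mouse. The Ctrl group held 5 wild-type C57BL/6 mice, numbered 1 to 5. The Case group held 6 diabetic db/db mice (BKS.Cg-Dock7m +/+ Leprdb/J), numbered 1 to 6, which carry the db mutation of the leptin receptor gene in every tissue. The Dapa group held 6 db/db mice, numbered 7 to 12, given 1 mg/kg of dapagliflozin a day, an inhibitor of the renal glucose transporter SGLT2, for 6 weeks from 8 weeks of age. The Ctrl and Case mice received saline over the same period. The db/db mice differ from the Ctrl mice in strain background as well as in the leptin receptor, so genotype and background cannot be told apart in any comparison with Ctrl.

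B cells are lymphocytes that carry an antibody as their receptor, and plasma cells are their descendants that secrete it. An antibody pairs 2 heavy chains with 2 light chains. Each chain joins a V segment, which binds antigen, to a constant region that sets its class. IgM is the first class made, and IgA is the class that plasma cells of mucosal and glandular tissues secrete, joined into dimers by the J chain. In a healthy kidney B cells and plasma cells are few, so these transcripts come from a small fraction of the tissue.

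Among the members, Ighm (constant region of IgM; mm10, chr12:113418558-113422730, minus strand) and Igha (constant region of IgA; chr12:113254830-113260236, minus strand) lie in the heavy-chain locus. Igkc (the only constant region of kappa light chains; chr6:70726435-70726966, plus strand) lies in the kappa locus and overlaps Gm30211 on the same strand. Jchain (chr5:88519809-88527891, minus strand) encodes the joining chain of IgA and IgM polymers. Mzb1 (chr18:35647266-35649367, minus strand) encodes a chaperone of the endoplasmic reticulum that aids antibody assembly. Cd79a (chr7:24897381-24902197, plus strand) and Cd79b (chr11:106311341-106314762, minus strand) encode the signalling chains of the B cell receptor, and Ms4a1 (chr19:11249675-11266241, minus strand) encodes the B cell surface protein CD20.

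Library totals ran from 13039535 to 17779635 counts, mitochondrial genes took 17.9% to 20.4% of them in Ctrl, 19.8% to 27.3% in Case and 19.7% to 27.6% in Dapa, and 1 count equalled 0.0562 to 0.0767 CPM, the unit in which counts are scaled to library totals. The proximal tubule markers that define kidney cortex summed to 16181 to 24507 CPM in Ctrl, 5741 to 10551 CPM in Case and 6118 to 11782 CPM in Dapa. Of these 6 proximal tubule markers, only Kap was called lower in Case than in Ctrl, with a mean FPKM 0.136 times that of Ctrl (log2 fold change −2.95, q = 0.00110 by edgeR). The other 5 had means of 0.878 (Slc34a1), 0.535 (Lrp2, q = 0.00407 by edgeR), 0.865 (Slc5a2), 1.03 (Slc5a12) and 0.747 (Cubn) times those of Ctrl. In whole-kidney RNA, fewer cells of a type and less RNA per cell cannot be told apart.

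**Figure D1:**
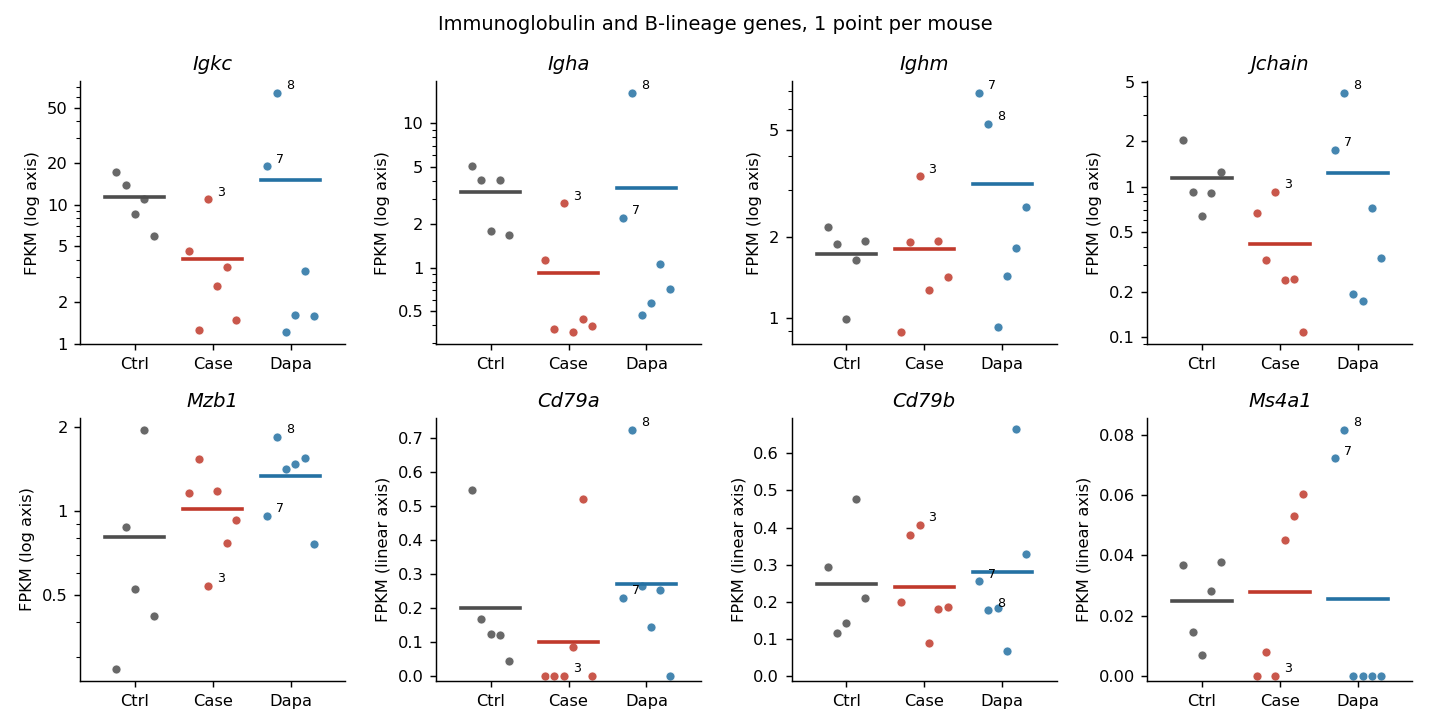
FPKM of the 8 genes in each mouse of the Ctrl, Case and Dapa groups, with a bar at the group mean. The first 5 genes have log axes and Cd79a, Cd79b and Ms4a1 linear axes, and the numbers mark Case 3, Dapa 7 and Dapa 8. Igkc, Igha and Jchain reached their highest values in Dapa 8, at 63.8, 16.3 and 4.20 FPKM.

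Igkc had the highest level per length of the members in all 3 groups, as judged by FPKM, which divides counts by library total and gene length. Its levels in Ctrl mice 1 to 5 were 17.3, 13.9, 8.62, 11.0 and 5.96 FPKM, a mean of 11.3 ± 4.41 (SD, n = 5). The 6 Case mice ranged from 1.25 to 10.9 FPKM with a median of 3.09 (mean 4.08 ± 3.60, SD, n = 6), and Case 3 held the highest value. Thus 5 of 6 Case mice lay below every Ctrl mouse. The Dapa mice ranged from 1.21 to 63.8 FPKM with a median of 2.46 (mean 15.1 ± 24.8, SD, n = 6). Dapa 8 and Dapa 7, at 63.8 and 19.0 FPKM, lay above every Ctrl mouse, whereas the other 4 Dapa mice lay below every Ctrl mouse.

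Igha showed a similar pattern among mice. It was at 5.05, 4.04, 1.81, 4.04 and 1.69 FPKM in Ctrl mice 1 to 5 (mean 3.33 ± 1.50, SD, n = 5). In Case it ranged from 0.357 to 2.80 FPKM with a median of 0.419, again with Case 3 highest. The other 5 Case mice lay below every Ctrl mouse. In Dapa it ranged from 0.470 to 16.3 FPKM with a median of 0.886. Dapa 8 had 785 Igha counts, against 22 to 99 in the other 5 Dapa mice.

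Jchain was at 2.04, 0.918, 0.636, 0.907 and 1.25 FPKM in Ctrl mice 1 to 5 (mean 1.15 ± 0.543, SD, n = 5). In Case it ranged from 0.108 to 0.923 FPKM with a median of 0.285, and in Dapa from 0.174 to 4.20 FPKM with a median of 0.531. Case 1 and Case 3 lay within the range of Ctrl, and the other 4 Case mice lay below it. Dapa 8 was above every Ctrl mouse, and 3 Dapa mice were below every Ctrl mouse.

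Ighm did not follow this order in Case. It was at 2.19, 1.90, 0.993, 1.65 and 1.95 FPKM in Ctrl mice 1 to 5 (mean 1.74 ± 0.457, SD, n = 5) and ranged from 0.887 to 3.37 FPKM in Case with a median of 1.67 (mean 1.80 ± 0.867, SD, n = 6). In Dapa it ranged from 0.925 to 6.88 FPKM with a median of 2.21 (mean 3.16 ± 2.39, SD, n = 6), and here Dapa 7 rather than Dapa 8 was highest. The ranges of the 3 groups overlapped.

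Mzb1 was low in all groups, with 4 to 30 counts per mouse. Its levels were 0.272, 0.876, 0.527, 1.96 and 0.421 FPKM in Ctrl mice 1 to 5, 0.542 to 1.54 FPKM in Case (median 1.05) and 0.763 to 1.85 FPKM in Dapa (median 1.45). No Case or Dapa mouse lay outside the range of Ctrl. Mzb1 overlaps Spata24 on the same strand, and 53.5% of its 50-base stretches also occur in transcripts of other genes, so its counts cannot be assigned to it with certainty.

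The 3 B cell receptor and surface genes were close to the floor of the measurement. Cd79a had 13, 4, 3, 3 and 1 counts in Ctrl mice 1 to 5, 0 counts in 4 of 6 Case mice and at most 12 in the other 2, and 0 to 17 counts in Dapa. Cd79b had 4 to 17 counts in Ctrl, 3 to 14 in Case and 2 to 19 in Dapa. Ms4a1 had 1 to 5 counts in Ctrl, 0 to 9 in Case and 0 to 11 in Dapa, where 4 of 6 mice had none. The range of each gene overlapped between all groups, and a count of 0 in these libraries allows a level of up to 3 counts (one-sided 95% limit, for counting error only), or 0.169 to 0.230 CPM. None of these 3 genes passed the filter on low counts. When no filter was applied, none was called in any comparison, with log2 fold changes in Case against Ctrl of −1.05 (SE 1.12, q = 0.592 by edgeR) for Cd79a, −0.13 (SE 0.50, q = 0.906 by edgeR) for Cd79b and 0.12 (SE 0.90, q = 0.948 by edgeR) for Ms4a1.

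To ask which members differed between diabetic and healthy kidneys, the Case mice were compared with the Ctrl mice. Igha, Igkc and Jchain were lower in Case, and Ighm and Mzb1 did not pass the test. The mean FPKM in Case was 0.275 times that in Ctrl for Igha, 0.360 times for Igkc and 0.364 times for Jchain. On the log2 scale Igha fell by 1.97 (SE 0.53, q = 0.0295 by edgeR), Igkc fell by 1.59 (SE 0.47, q = 0.0442 by edgeR) and Jchain fell by 1.57 (SE 0.46, q = 0.0430 by edgeR). Ighm had a log2 fold change of −0.04 (SE 0.30, q = 0.949 by edgeR) and Mzb1 one of 0.26 (SE 0.46, q = 0.753 by edgeR). Thus 3 of the 5 members tested were called, with a q under 0.05 and a fold above 2, where 553 of all 14582 genes tested were called (3.79%), 213 of them lower (1.46%).

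The 3 calls rested close to the threshold. None was called without Ctrl 1, Ctrl 2, Case 2, Case 4 or Case 6, where the q-values lay between 0.0535 and 0.123. Igha alone was called without Ctrl 3 (q = 0.0415) or Case 5 (q = 0.0440). Igkc was no longer called without Ctrl 4 (q = 0.0595) or Case 1 (q = 0.0576), nor Jchain without Ctrl 5 (q = 0.0798). Without Case 3, the Case mouse with the highest levels, all 3 were called with larger changes, a log2 fold change of −2.71 (q = 0.00218) for Igha, −2.16 (q = 0.00524) for Igkc and −1.95 (q = 0.0169) for Jchain. The calls were also lost when all 3 groups entered the fit (q = 0.124 to 0.228), and with a term for 7 libraries in which FPKM and counts disagreed for 3 genes of the table (q = 0.0844 to 0.119). The log2 fold changes of Igkc, Igha and Jchain were −1.59, −1.98 and −1.57 with all 3 groups and −1.45, −1.81 and −1.40 with that term. Over the mice left out in turn they lay between −2.16 and −1.36, −2.71 and −1.75, and −1.95 and −1.23. Case 3 also stood apart in the summed level of 8 macrophage markers, at 296 CPM against 51.7 to 93.2 CPM in the other Case mice, and had the highest sum of 10 T and NK cell markers in Case, at 9.50 CPM against 1.34 to 4.63 CPM, and of 5 neutrophil markers, at 18.3 CPM against 0.844 to 12.6 CPM. Of the macrophage markers, Cd14 was called higher in Case than in Ctrl (q = 0.0284 by edgeR). All 5 erythrocyte markers were higher in Case than in Ctrl, with summed levels of 80.0 to 596 CPM against 25.1 to 93.8 CPM. The mitochondrial share was 25.0% and 27.3% in Case 2 and Case 6, the Case mice with the lowest Igkc, and 19.8% to 23.2% in the other 4, with 23.2% in Case 3. The part of these other cell types and of the mitochondrial share in the values of the antibody genes was not tested.

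**Figure D2:**
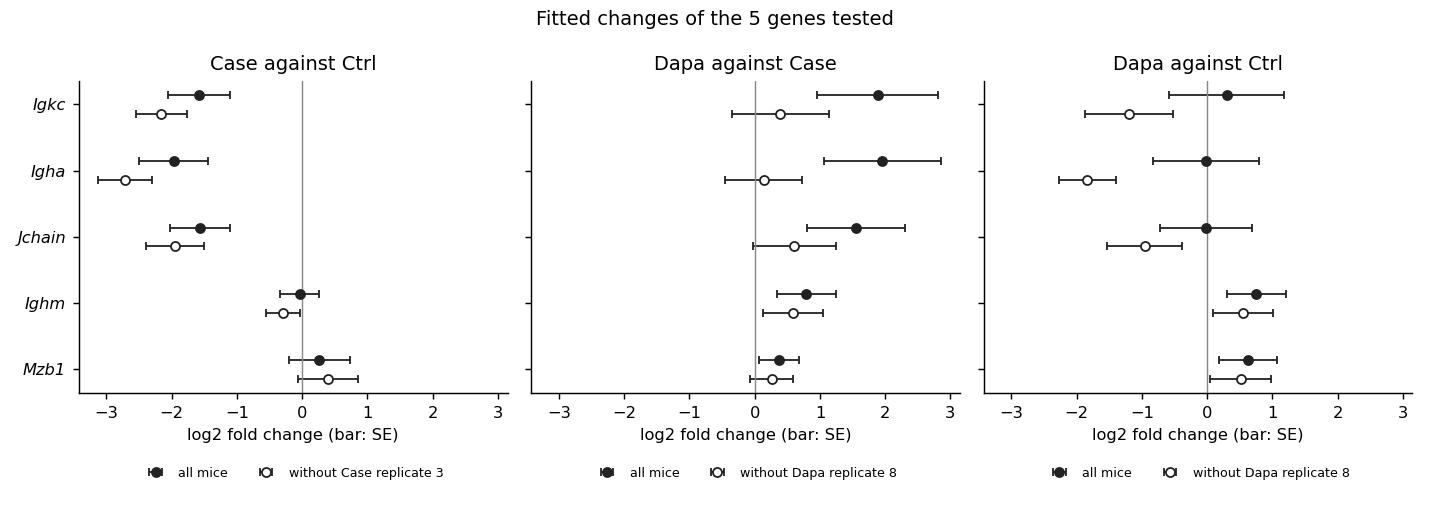
log2 fold changes with standard errors of the 5 genes that passed the filter in the 3 comparisons, fitted with all mice (filled) and without the mouse named under each panel (open). Igkc, Igha and Jchain lay below 0 in Case against Ctrl in both fits, and in Dapa against Case their values near 1.9, 2.0 and 1.6 dropped to 0.39, 0.14 and 0.61 without Dapa 8.

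To ask whether dapagliflozin changed these genes in diabetic kidneys, the Dapa mice were compared with the Case mice. The mean FPKM was 3.69-fold higher in Dapa for Igkc, 3.87-fold for Igha and 2.94-fold for Jchain, but no member was called. The log2 fold changes were 1.88 for Igkc (SE 0.93, q = 0.401 by edgeR), 1.96 for Igha (SE 0.89, q = 0.378 by edgeR) and 1.55 for Jchain (SE 0.75, q = 0.395 by edgeR). Ighm had a log2 fold change of 0.79 (SE 0.45, q = 0.459 by edgeR) and Mzb1 one of 0.37 (SE 0.31, q = 0.633 by edgeR). Of the 14573 genes tested, 0 were called by edgeR (0%) and 1880 had an unadjusted p under 0.05 (12.9%). Igha was the only member among them (unadjusted p = 0.0460 by edgeR), and DESeq2 called 81 genes. None of them was a member, but DESeq2 gave no adjusted p for Igha, which therefore could not be called. These differences rested on Dapa 8: without it the log2 fold changes were 0.39 for Igkc, 0.14 for Igha and 0.61 for Jchain. Dapa 8 also had the highest sums of T and NK cell markers (9.20 CPM against 3.46 to 7.32 CPM), neutrophil markers (7.70 CPM against 0.636 to 2.43 CPM) and macrophage markers (109 CPM against 44.1 to 94.6 CPM) among Dapa mice. The mitochondrial share was 19.9% and 19.7% in Dapa 7 and Dapa 8, the Dapa mice with the most Igkc, and 22.5% to 27.6% in the other 4. The part of these in the values was not tested.

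Compared with Ctrl, no member was called in Dapa, where 1051 of 14647 genes were called (7.18%), 311 of them lower (2.12%). Ighm had a log2 fold change of 0.75 (SE 0.45, q = 0.232 by edgeR), Mzb1 0.62 (SE 0.45, q = 0.315 by edgeR), Igkc 0.30 (SE 0.88, q = 0.825 by edgeR), Igha −0.02 (SE 0.82, q = 0.988 by edgeR) and Jchain −0.01 (SE 0.70, q = 0.990 by edgeR). For Igha and Jchain 1 Dapa mouse, Dapa 8, lay above all Ctrl mice, while 4 Dapa mice for Igha and 3 for Jchain lay below all of them. Without Dapa 8, Igha was called lower in Dapa, with a log2 fold change of −1.83 (q = 0.0110 by edgeR), and the log2 fold changes of Igkc and Jchain were −1.19 (q = 0.206) and −0.96 (q = 0.232). Without Ctrl 4, Mzb1 was called higher in Dapa, with a log2 fold change of 1.22 (q = 0.0369 by edgeR). With the term for the 7 libraries, the log2 fold changes of Igkc, Igha and Jchain were −0.75, −0.82 and −0.53, and none was called. Of the markers of other cell types, 2 of 4 tested T and NK cell markers (Trac and Lck), all 5 erythrocyte markers, 1 of 8 macrophage markers (Cd14, q = 0.0190 by edgeR) and 1 of 4 distal nephron and collecting duct markers (Aqp2, q = 0.00754 by edgeR) were called higher in Dapa than in Ctrl. Of the 6 proximal tubule markers, 2 were called lower, Kap and Lrp2, with mean FPKM 0.188 and 0.454 times that of Ctrl (q = 0.000689 and 0.000557 by edgeR). The part of these cell types in the values of the antibody genes was not tested.

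The balance of IgA and IgM was then compared within each library, where scaling between libraries plays no part. The log2 ratio of Igha to Ighm per length was 1.20, 1.09, 0.85, 1.28 and −0.20 in Ctrl mice 1 to 5, so Igha exceeded Ighm in 4 of 5. In Case it ranged from −2.32 to 0.33, and 5 of 6 mice lay below every Ctrl mouse, the exception being Case 1. The mean was 0.84 ± 0.61 in Ctrl (SD, n = 5) and −1.33 ± 1.09 in Case (SD, n = 6), a difference of −2.18 (exact two-sided permutation test, p = 0.00866; q = 0.0519 over 6 tests of 2 ratios). In Dapa the mean was −0.82 ± 1.26 (SD, n = 6), and 5 of 6 mice lay below every Ctrl mouse while Dapa 8, at 1.62, lay above them all. The difference of Dapa from Ctrl was −1.67 (exact permutation test, p = 0.0346, q = 0.104) and that of Dapa from Case was 0.51 (exact permutation test, p = 0.498, q = 0.597).

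The log2 ratio of Jchain, a gene of antibody-secreting cells, to Cd79a, a gene of the B cell receptor, was 2.65 ± 0.95 in Ctrl (SD, n = 5), 2.81 ± 2.46 in Case (SD, n = 6) and 1.67 ± 1.64 in Dapa (SD, n = 6). The differences were within the spread between mice, at 0.16 for Case against Ctrl (exact permutation test, p = 0.913), −1.14 for Dapa against Case (p = 0.366, same exact test) and −0.98 for Dapa against Ctrl (p = 0.273, same exact test). With 0 to 17 counts of Cd79a per mouse, this ratio was coarse.

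Across all heavy-chain constant regions, Igha made up 39.4% to 64.6% of the summed FPKM in Ctrl, 12.7% to 36.7% in Case and 16.5% to 50.5% in Dapa. The highest Igha share in Case, 36.7% in Case 3, lay just under the lowest in Ctrl, 39.4% in Ctrl 5. The log2 ratio of Igha to Ighm did overlap, with Case 1 at 0.33 above Ctrl 5 at −0.20. Ighm made up 24.7% to 45.3% in Ctrl, 27.6% to 75.7% in Case and 16.4% to 60.9% in Dapa. The 4 IgG genes together (Ighg1, Ighg2b, Ighg2c and Ighg3) reached 17.5% in Ctrl, 34.1% in Case (Case 1) and 32.5% in Dapa (Dapa 8). In Dapa 8 Ighg2b and Ighg2c had 201 and 129 counts. Dapa 7 had 60.9% Ighm and 19.6% Igha, so the 2 Dapa mice with the most Igkc differed in their heavy chains. These shares rested on few counts in the mice with low levels, as in Case 4 and Case 5, with 17 and 21 Igha counts.

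**Figure D3:**
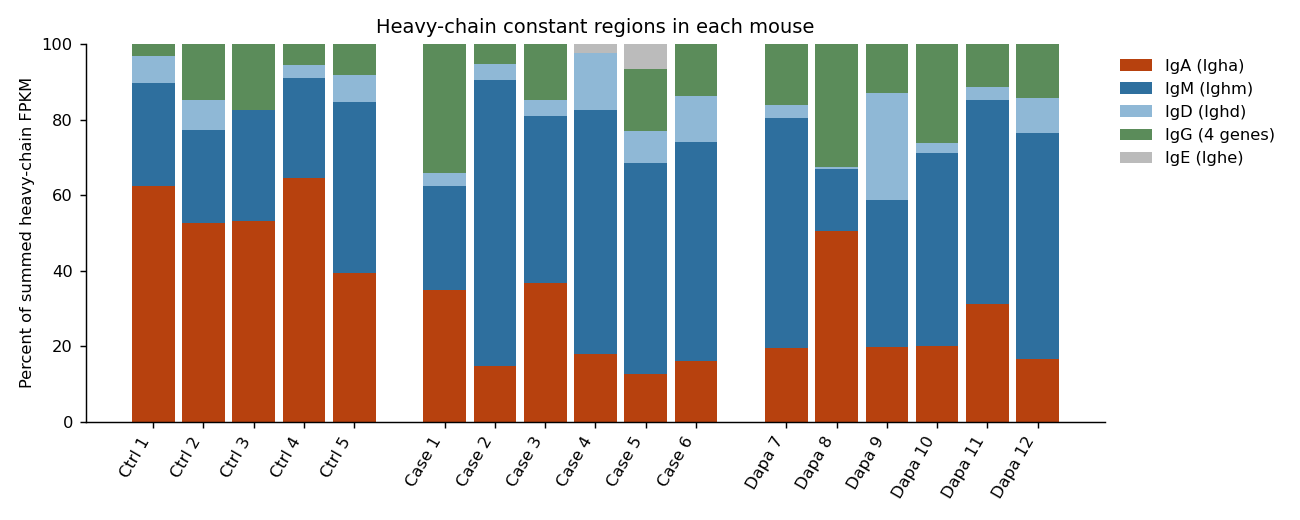
Stacked bars give the percent of the summed FPKM of all heavy-chain constant regions taken by each class in each mouse. Igha took 39.4% to 64.6% in Ctrl and 12.7% to 36.7% in Case, and Dapa 8 held 50.5% Igha. The IgG share was 34.1% in Case 1, the highest of all mice, and 32.5% in Dapa 8.

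The V segments were not used to choose the members and gave a second view of the same transcripts. The table held 157 V segments, of which 78 were heavy-chain (Ighv), 76 kappa (Igkv) and 3 lambda (Iglv). The summed Ighv counts were 50 to 110 in Ctrl, 3 to 71 in Case with a median of 18, and 9 to 510 in Dapa with a median of 20.5. The summed Igkv counts were 56 to 157 in Ctrl, 22 to 108 in Case with a median of 33, and 21 to 685 in Dapa with a median of 46.5. Case 3 was highest in Case and Dapa 8 in Dapa for both sums. In Ctrl 17 to 36 different Ighv segments had a count, in Case 2 to 23 and in Dapa 5 to 50.

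Dapa 8 held counts for 50 of the 78 Ighv segments. The most abundant of them, Ighv1-39, had 133 of its 510 Ighv counts, or 26.1% (95% exact binomial interval 22.3% to 30.1%, for counting error only), and Ighv8-12 had 51. Among the other 16 mice Ighv1-39 had a count in 3, with at most 4, and Ighv8-12 in 1 mouse, Ctrl 5, with 10. Igkv5-43 led the kappa segments of Dapa 8, with 97 of 685 counts or 14.2%, followed by Igkv1-117 with 95. These 2 kappa segments had counts in 10 and 12 of the other 16 mice.

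By share the other 3 segments did not set Dapa 8 apart, since Ighv8-12 led the Ighv segments of Ctrl 5 (20% of its counts), Igkv5-43 the Igkv segments of Ctrl 3 (20.8%) and Igkv1-117 those of Dapa 12 (28.6%). The ends of these 4 V segments are shown since they were the 2 most abundant of each kind in Dapa 8. Each run gives 60 bases of the reference transcript (GENCODE M21, build GRCm38, transcript strand, 5′ to 3′), and capitals mark its last 3 bases, the codon of the conserved cysteine that ends the framework region before the CDR3 loop. The genes lie at chr12:114914599-114915032 (minus strand) for Ighv1-39, chr12:115647945-115648387 (minus strand) for Ighv8-12, chr6:69823355-69823943 (minus strand) for Igkv5-43 and chr6:68121046-68121827 (plus strand) for Igkv1-117.
Ighv1-39: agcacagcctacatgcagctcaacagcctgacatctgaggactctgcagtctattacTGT
Ighv8-12: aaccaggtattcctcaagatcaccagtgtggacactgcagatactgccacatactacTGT
Igkv5-43: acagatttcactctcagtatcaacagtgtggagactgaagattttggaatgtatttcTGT
Igkv1-117: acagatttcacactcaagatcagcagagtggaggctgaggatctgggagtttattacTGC
Of their 50-base stretches, the share found in transcripts of other genes too was 7.28% for Ighv1-39, 18.5% for Ighv8-12, 51.2% for Igkv5-43 and 49.9% for Igkv1-117. Counts of the kappa segments in particular may include reads of their relatives.

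**Figure D4:**
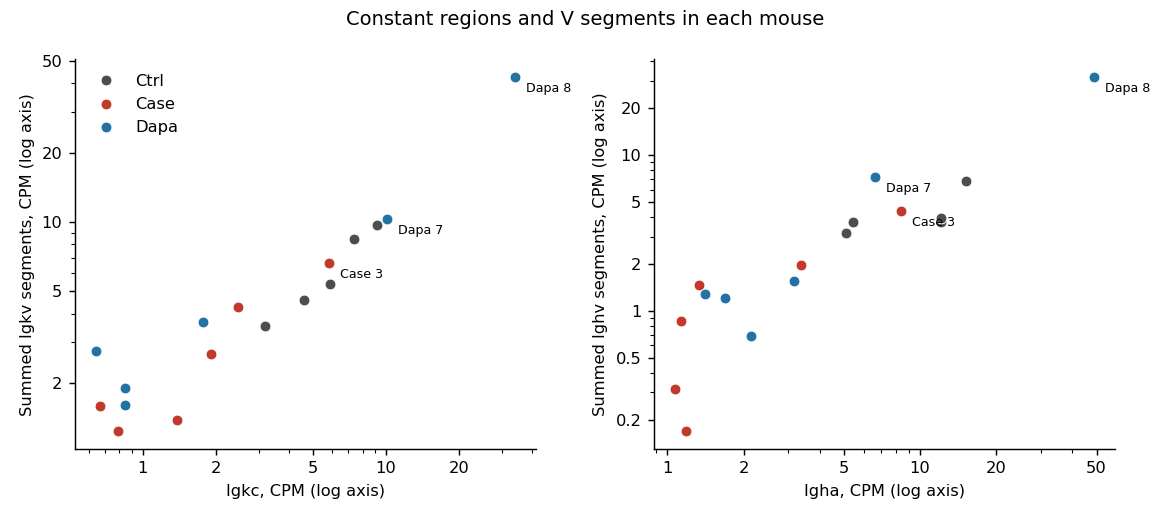
Each point is a mouse, with the CPM of a constant region on the horizontal axis and the summed CPM of the V segments of the same locus on the vertical axis, both on log axes. Mice high in Igkc were high in Igkv segments and mice high in Igha were high in Ighv segments, with Dapa 8 at the top right of both panels (42.6 CPM of Igkv and 31.7 CPM of Ighv segments).

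The members were next compared from mouse to mouse. Over the 17 mice, 5 of the 28 pairs of members were correlated at a q under 0.05, on log2(FPKM + 1) with permutation tests adjusted over 30 pairs, and the 5 correlations were positive. Igkc and Igha had r = 0.95 (permutation p = 1e-05, the smallest that 100000 permutations can give, and q = 6e-05) and rho = 0.89 (permutation p = 1e-05). Without Dapa 7 and Dapa 8, the 2 mice farthest from the median of Igkc, r was 0.95, and it was 0.92 within Case and 0.95 within Dapa. Igkc and Jchain had r = 0.93 (permutation p = 1e-05, q = 6e-05) and rho = 0.88 (permutation p = 2e-05), with r = 0.86 without those 2 mice, 0.86 within Case and 0.99 within Dapa. Igha and Jchain had r = 0.92 (permutation p = 1e-05, q = 6e-05) and rho = 0.87 (permutation p = 3e-05), with r = 0.80 without Ctrl 1 and Dapa 8, 0.93 within Case and 0.96 within Dapa.

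The correlations of Ighm were weaker, and as measured by r they depended on Dapa 7 and Dapa 8. Ighm and Jchain had r = 0.69 (permutation p = 0.00420, q = 0.0210) and rho = 0.66 (permutation p = 0.00457, q = 0.023). Igkc and Ighm had r = 0.64 (permutation p = 0.00628, q = 0.0269) and rho = 0.52 (permutation p = 0.0348, q = 0.149), so by rank this pair did not pass. Without Dapa 7 and Dapa 8 the values of r fell to 0.37 and 0.29 and no longer passed the test (permutation p = 0.177 and 0.288). Within Case they were 0.40 and 0.50 (exact permutation p = 0.438 and 0.310), and within Dapa, which holds that pair of mice, 0.84 and 0.86 (exact permutation p = 0.0389 and 0.0417). With group means subtracted they were 0.76 and 0.77 over all mice (permutation p = 0.00038 and 0.00031). Mzb1 was not correlated with Igkc (r = −0.10, permutation p = 0.688, and rho = −0.17, permutation p = 0.520), nor was Cd79b (r = 0.02, permutation p = 0.947, and rho = 0.03, permutation p = 0.899). The V segments followed their constant regions, with r = 0.96 between Igkc and the Igkv sum (permutation p = 1e-05, q = 6e-05, and rho = 0.91, permutation p = 1e-05) and r = 0.94 between Igha and the Ighv sum (permutation p = 1e-05, q = 6e-05, and rho = 0.92, permutation p = 1e-05). Without the 2 farthest mice these were 0.93 and 0.85.

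Outside the immunoglobulin genes, likeness to Igkc was ranked over the 17 mice among 15050 genes, with group means subtracted, as a description. The closest were Mrto4-ps2 (r = 0.83), Oma1 (r = 0.80), Snd1 (r = 0.77), Tbc1d5 (r = 0.76) and Rreb1 (r = 0.76). Without Dapa 8 the correlations were 0.73 for Mrto4-ps2 (rank 34), 0.83 for Oma1 (rank 2), 0.51 for Snd1 (rank 775), 0.72 for Tbc1d5 (rank 47) and 0.48 for Rreb1 (rank 959). Among the closest to Cd79a were Maf (r = 0.90), Mocos (r = 0.87), Mob3b (r = 0.86) and Erbb3 (r = 0.85), a likeness to a gene with 0 to 17 counts per mouse. All values share the library and its scaling.

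Of 24 genes of B cell identity other than the members, 11 were tested. In Case against Ctrl 1 was called higher and none lower (3.79% of all genes tested were called), with a median log2 fold change of 0.31 against 0.03 over all genes tested. The gene called was Cd24a, which encodes a surface protein of immature B cells that tubular epithelium also makes, at 64.9 ± 17.1 FPKM in Ctrl (SD, n = 5) and 131 ± 55.6 FPKM in Case (SD, n = 6), with a log2 fold change of 0.93 (q = 0.0375 by edgeR). This call was lost in 8 of 11 fits that left out a mouse, with q-values of 0.00869 to 0.0931 over these fits. It was also lost in 4 of 10 other settings, with q-values of 0.00447 to 0.158. In Dapa against Ctrl, where 7.18% of all genes tested were called, Cd24a (log2 fold change 0.91, q = 0.00509 by edgeR) and Blnk, an adaptor of B cell receptor signalling, were called higher. The Cd24a call was lost in 6 of 11 fits that left out a mouse, through a fold under 2. Blnk was at 1.53 ± 0.166 FPKM in Ctrl (SD, n = 5), 2.07 ± 0.365 in Case (SD, n = 6) and 3.70 ± 0.791 in Dapa (SD, n = 6). Its log2 fold change in Dapa against Ctrl was 1.17 (SE 0.15, q = 0.000390 by edgeR). In Dapa against Case it was 0.82 (SE 0.16, q = 0.179 by edgeR), and no fit called it. The q-values in that comparison were 0.0180 to 0.421 without a mouse and 0.00144 to 0.325 in other settings. Ralgps2, the third in level per length, was at 0.844 ± 0.0973 FPKM in Ctrl (SD, n = 5) and 0.501 ± 0.112 FPKM in Case (SD, n = 6), a difference with a q of 0.00476 by edgeR and a fold under 2.

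Of 16 genes of plasma cells and secretion 15 were in the table and 14 were tested. In Case against Ctrl 1 was called higher and none lower (median log2 fold change −0.14). The 3 with the highest levels, which serve protein folding and secretion in all cells, were Hsp90b1 (log2 fold change −0.10, q = 0.710 by edgeR), Pdia4 (−0.20, q = 0.515) and Xbp1 (−0.03, q = 0.944). The gene called was Derl3, which acts in the degradation of misfolded proteins, with 0 to 9 counts in Ctrl, 9 to 64 in Case and 3 to 30 in Dapa (log2 fold change 2.14 in Case against Ctrl, SE 0.66, q = 0.0493 by edgeR). Its call was lost in 5 of 6 fits without a mouse in which it was tested, with q-values of 0.0397 to 0.0906. In the rest of these fits it did not pass the filter. Other settings lost the call in 3 of 8, with log2 fold changes of 0.75 to 2.26 and q-values of 0.00863 to 0.0632. Of the 14 tested genes 9 had a log2 fold change below 0. Prdm1, a transcription factor of plasma cell differentiation (−0.87, q = 0.0395 by edgeR), and Edem1, which like Derl3 acts in the degradation of misfolded proteins (−0.56, q = 0.00983 by edgeR), were lower by less than the fold of 2 a call needed. Irf4 (−1.13, q = 0.341 by edgeR) and Slamf7 (−0.76, q = 0.386 by edgeR) did not pass the test. Tnfrsf17, the plasma cell receptor BCMA, had at most 2 counts in any mouse. No gene of this list was called in Dapa against Ctrl.

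Among the other constant regions, 10 of 11 were in the table, and only Ighg2b passed the filter in Case against Ctrl (log2 fold change 0.02, q = 0.989 by edgeR). Over all 17 mice the highest mean levels were those of Ighg2c, Ighg2b and Iglc1, whereas Ighd, the constant region of IgD, had the highest mean in Ctrl (0.342 FPKM) and in Case (0.239 FPKM). Ighg2c had 1 to 15 counts in Ctrl, 0 to 14 in Case and 3 to 129 in Dapa, Ighg2b 5 to 18, 0 to 22 and 4 to 201, and Iglc1, a lambda light chain, 0 to 4, 0 to 4 and 0 to 6. Ighg2c in Dapa against Case had a log2 fold change of 2.23 (q = 0.345 by edgeR), and its highest value was that of Dapa 8.

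Receptors that carry or bind antibody were measured at higher levels. All 9 were tested in Case against Ctrl, where 1 was called lower and none higher (median log2 fold change 0.48). Fcamr, the Fc receptor for IgA and IgM, was at 34.8, 28.7, 35.2, 18.1 and 41.4 FPKM in Ctrl mice 1 to 5, 3.78 to 14.8 FPKM in Case (median 4.95) and 3.05 to 21.2 FPKM in Dapa (median 6.02). The Case mice lay below every Ctrl mouse (the groups did not overlap in 8.43% of all genes tested in this comparison), and Dapa 7 was the only Dapa mouse within the range of Ctrl. Fcamr fell by 2.20 on the log2 scale in Case against Ctrl (SE 0.38, q = 0.00344 by edgeR) and by 2.08 in Dapa against Ctrl (SE 0.41, q = 0.00304 by edgeR), and both calls held in every fit that left out a mouse. Pigr, the epithelial receptor that carries polymeric IgA into secretions, was at 77.4 ± 25.0 FPKM in Ctrl (SD, n = 5), 77.0 ± 49.5 in Case (SD, n = 6) and 55.9 ± 47.5 in Dapa (SD, n = 6), with a log2 fold change in Case against Ctrl of −0.11 (q = 0.885 by edgeR). Dapa 7 and Dapa 8 had 131 and 101 FPKM of Pigr, and the other Dapa mice 15.9 to 33.2 FPKM, below every Ctrl mouse. In Case the highest value was that of Case 1, 161 FPKM, against 105 FPKM in Case 3. Whether Pigr follows the antibody transcripts was not tested. Fcgrt, the neonatal Fc receptor that recycles IgG, was at 90.3 ± 1.59 FPKM in Ctrl (SD, n = 5) and 74.4 ± 12.7 FPKM in Case (SD, n = 6), with a log2 fold change of −0.36 (q = 0.0432 by edgeR) and a fold under 2. Fcgr4, an activating IgG receptor of myeloid cells, was lower in Dapa than in Ctrl (log2 fold change −1.40, q = 0.0242 by edgeR). This call was lost in 2 of 11 fits without a mouse (q-values 0.00602 to 0.0699). It was also lost in 1 of 8 other settings, with log2 fold changes of −1.46 to −0.61 and q-values of 0.00790 to 0.167.

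**Figure D5:**
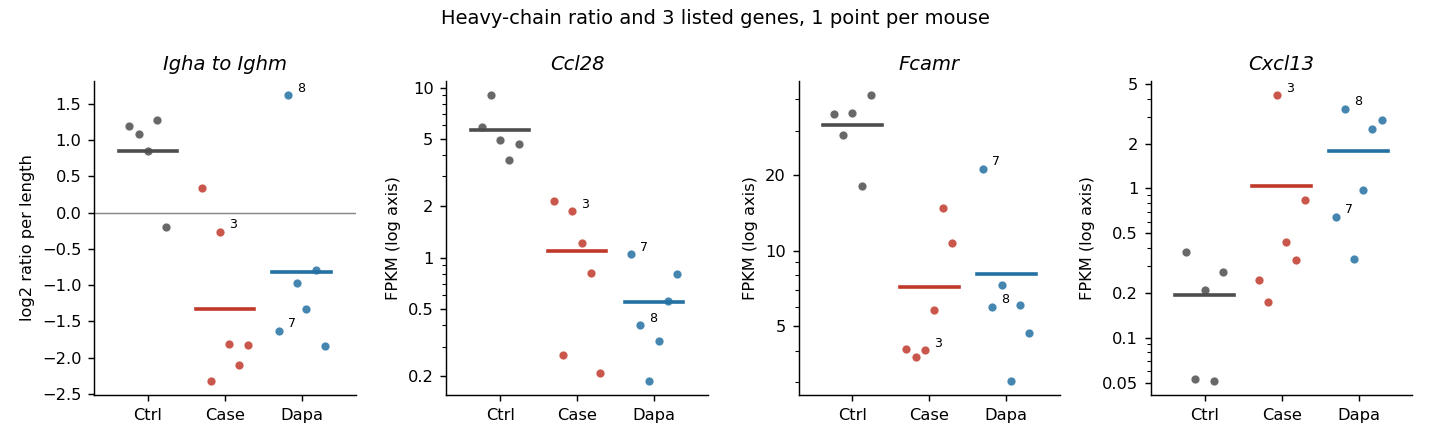
The log2 ratio of Igha to Ighm per length and the FPKM of Ccl28, Fcamr and Cxcl13 on log axes in each mouse, with a bar at the group mean and numbers at Case 3, Dapa 7 and Dapa 8. Ccl28 lay at 3.77 FPKM or more in the Ctrl mice and at 2.14 FPKM or less in the 12 db/db mice.

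Of 19 genes of B cell homing and survival 16 were in the table and 6 were tested in each comparison. Ccl28, a chemokine of epithelia that attracts IgA plasma cells through Ccr10, was called lower in both groups of db/db mice. It was at 5.90, 9.01, 4.90, 3.77 and 4.67 FPKM in Ctrl mice 1 to 5, 0.211 to 2.14 FPKM in Case (median 1.01) and 0.189 to 1.04 FPKM in Dapa (median 0.476). No Case or Dapa mouse reached the lowest Ctrl mouse, where groups without overlap occurred in 8.43% of genes tested in Case against Ctrl and 14.5% in Dapa against Ctrl. Ccl28 fell by 2.48 on the log2 scale in Case against Ctrl (SE 0.48, q = 0.00642 by edgeR) and by 3.48 in Dapa against Ctrl (SE 0.36, q = 0.000139 by edgeR), and both calls held in the fits that left out a mouse. In Dapa against Case the log2 fold change was −0.99 (SE 0.54, q = 0.445 by edgeR). Of the mice with high antibody transcripts, Dapa 8 had 0.399 FPKM of Ccl28, Dapa 7 the highest value of Dapa, 1.04 FPKM, and Case 3 the second highest of Case, 1.87 FPKM. Ccr10 had at most 2 counts in any mouse.

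Cxcl13, a chemokine that draws B cells into follicles, was called higher in Dapa than in Ctrl (log2 fold change 3.05, SE 0.68, q = 0.00584 by edgeR). It had 1 to 7 counts in Ctrl, 3 to 79 in Case and 6 to 63 in Dapa, and its highest values in the latter groups were those of Case 3 and Dapa 8. It did not pass the filter in Case against Ctrl. In Dapa against Ctrl it was tested in only 6 of the 11 fits that left out a mouse, and called in each. In the rest it did not pass the filter, so those fits could not call it. Over other settings its log2 fold change in this comparison was 1.09 to 3.10. In Dapa against Case it was 0.77 (SE 0.74, q = 0.687 by edgeR). Cxcl12, the chemokine that retains plasma cells in bone marrow, was at 6.79 ± 1.34 FPKM in Ctrl (SD, n = 5) and 10.1 ± 2.21 FPKM in Case (SD, n = 6), with a log2 fold change of 0.50 (q = 0.0679 by edgeR). Its receptor Cxcr4 was at 1.50 ± 0.387 and 1.03 ± 0.244 FPKM in these groups (log2 fold change −0.62, q = 0.112 by edgeR).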

How the data were processed

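RNA of 17 kidneys was sequenced from stranded libraries after oligo(dT) selection. Reads were aligned by the authors with HISAT2 to mm10, and a Stringtie count and an FPKM value per gene were deposited. Whether the counting used strand is not given in the sources used here. The deposited FPKM followed count, total and gene length to within 0.0158%, with no TMM factor. Of 22561 genes, Sirt1, Tgfb1 and Bmp4, with entries on 2 lines, were left out. In 7 libraries (Ctrl 1, 3 and 4, Case 1 and Dapa 10, 11 and 12) their FPKM and counts disagreed by more than 1% (factors 0.970 to 1.38). No library was a duplicate of another (lowest chi-square per gene 14.7).

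Counts were normalized by TMM, filtered with filterByExpr and compared for each pair of groups with the quasi-likelihood test of edgeR 4.0.16 in R 4.3.3, with Benjamini-Hochberg adjustment over all genes tested. A call needed q under 0.05 and a fold of FPKM means above 2. Standard errors are those of the fitted log2 fold changes. Ratios used counts + 0.5 per length and exact permutation tests, and correlations 100000 permutations, in Python 3.11.15 (numpy 2.4.6, scipy 1.17.1, pandas 2.3.3; figures with matplotlib 3.10.9). Likeness used log2 CPM with a prior count of 2. Intervals of shares are Clopper-Pearson.

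The members and gene lists were chosen with earlier results of these data known. The genes named were the 8 members, every listed gene called in any comparison, the 3 with the highest mean FPKM of each B-lineage list, and those most like Igkc and Cd79a, up to 5 each. Tnfrsf17, Ccr10, Kap and the other proximal tubule markers, Trac, Lck, Cd14, Aqp2, Prdm1, Edem1, Irf4, Slamf7 and Ighd were named after their values were seen. Lists of markers of 11 cell types were also summed. In Case against Ctrl neutrophil markers gave 0 calls among 2 tested, adipocyte and lymph node markers 0 among 1 each, distal nephron markers 0 among 4, podocyte markers 0 among 3, T and NK cell markers 0 among 2, macrophage markers 1 higher among 8, and plasma cell markers 1 higher and 2 lower among 4. Some items of the marker and likeness lists are not reported here. The edgeR fit and the permutation test of means were also run on simulated data, and the outcomes are not reported here. Alternatives were DESeq2 1.42.0, upper-quartile scaling, no fold threshold, no filter, a minimum of 10 counts in every sample, all 3 groups in 1 fit, limma 3.58.1 on log2(FPKM + 1) or log2(FPKM + 0.1), leaving out each mouse, a term for the 7 libraries and a block for the replicate number.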

Additional observations from a re-analysis of the deposited data

Results flagged for a closer look

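Among 36 sets of 5 or 6 mice tested for a mouse far from the rest with Dixon's test, 12 held such a mouse. Dapa 8 was the mouse in 6 of them, with 63.8 FPKM of Igkc, 16.3 FPKM of Igha, 0.725 FPKM of Cd79a, a log2 ratio of Igha to Ighm of 1.62, 31.7 CPM of Ighv segments and 42.6 CPM of Igkv segments. Case 3 stood apart in Igkc with 10.9 FPKM and in Igha with 2.80 FPKM.

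Ctrl 1 stood apart within Ctrl in Cd79a with 0.550 FPKM and in Ighv segments with 6.78 CPM, and Ctrl 5 in the log2 ratio of Igha to Ighm with −0.20. Case 5 stood apart in Cd79a with 0.522 FPKM. The Cd79a values rest on 13 counts in Ctrl 1, 12 in Case 5 and 17 in Dapa 8. The sets share mice and their genes move together, so they are not independent of each other.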

How the results depend on the processing

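The 3 members called in Case against Ctrl became 0 when all 3 groups entered the fit and 0 with the term for the 7 libraries, and leaving out a mouse gave 0 to 3. In Dapa against Ctrl leaving out a mouse gave 0 to 1 called members, and in Dapa against Case 0. No setting reversed Igkc, Igha or Jchain in Case against Ctrl. The mice of Ctrl and Case share replicate numbers but no pairing was found (correlations of deviations −0.08 to −0.03, none best with its own number), and with the replicate number as a block 0 members were called.

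In Case against Ctrl, Ighm had a log2 fold change of 0.00049 with limma on log2(FPKM + 1) and −0.29 to 0.082 without a mouse, and Fcgr4 had −0.033 with limma on log2(FPKM + 0.1) and −0.17 to 1.03 without a mouse. In Dapa against Case, Cd24a had 0.068 and 0.069 with limma at pseudocounts of 1 and 0.1 and −0.17 to 0.16 without a mouse, and Fcamr had −0.44 to 0.46 without a mouse. In Dapa against Ctrl, Igkc had −0.82 and −1.10 with limma at pseudocounts of 1 and 0.1, −0.75 with the library term and −1.19 to 0.55 without a mouse. Igha had 0.0011 among genes with 10 counts in every sample and −1.83 to 0.22 without a mouse, and Jchain had 0.010 with upper-quartile scaling and −0.96 to 0.33 without a mouse.

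The log2 ratio of Igha to Ighm in Dapa against Ctrl had a difference of −2.23 by medians (exact permutation p = 0.0779) and −2.15 to −1.46 without a mouse (exact permutation p = 0.00794 to 0.0667). It was −2.51 to −1.98 in Case against Ctrl without a mouse (exact permutation p = 0.00794 to 0.0190). The ratio of Jchain to Cd79a in Case against Ctrl was −0.58 with FPKM + 0.1 and −0.38 to 0.94 without a mouse. Correlated pairs of members were 10 with group means subtracted and 3 without the 2 farthest mice, against 5. By rank the pair of Igkc and Ighm was lost (q = 0.149 by permutation test). The causes were not tested. At these depths, members with fewer than 20 counts have large counting errors. The p-values set a group difference or a correlation against the variation between these mice.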
